A study of Mus musculus with 4 samples.

Results

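Htr2c, the gene of the serotonin 2C receptor, was described in single nuclei of mouse medial prefrontal cortex, with most attention to near-projecting and Vip neurons, for which it was chosen on its level. It is 1 of the 32287 features of the count matrix and was found by its symbol (ENSMUSG00000041380). The 4 samples came from C57BL/6J mice of 9 weeks, 24 hours after injection. They comprised 1 female and 1 male sample given DOI, a psychedelic agonist of serotonin 2 receptors, and 1 female and 1 male sample given saline. All of them, saline samples included, expressed scFLARE2, which records neuronal activity, and TRE-mCherry-p2a-bReaChES, a reporter with an opsin. The labels do not say which cells carried these transgenes or how many mice made up a sample. Barcode endings separate 4 libraries, here libraries 1 to 4, but name no sample. The matrix was therefore treated as 1 sample that mixes sexes and treatments, and DOI and saline were not compared.

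The serotonin 2C receptor couples to Gq, which activates phospholipase C and so calcium release and protein kinase C. It belongs to the same receptor family as Htr2a, the main target of psychedelics, and it is known for its effects on feeding, anxiety and dopamine release. Its transcript is also known for A-to-I editing, in which ADAR enzymes change adenosines that are then read as guanosines and so alter the loop that meets the G protein. Near-projecting neurons are deep-layer excitatory cells with mostly local targets. Vip neurons are interneurons that largely inhibit other interneurons.

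On mm10 (GRCm38), Htr2c spans chromosome X from 146962513 to 147197277 on the plus strand. In the GENCODE M21 transcript Htr2c-201 it has 6 exons, and the edited stretch lies in exon 5, whose bounds are 147169570 and 147169770. The coding sequence chrX:147169671-147169715 is shown because it carries the 5 adenosines, in capitals, known as sites A, B, E, C and D from 5′ to 3′ (codons 157 to 161):
Htr2c edited stretch: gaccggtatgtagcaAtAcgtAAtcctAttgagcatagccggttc
The counts are of 3′-end UMIs per gene, where a unique molecular identifier (UMI) stands for an RNA molecule that was captured. They give the amount of Htr2c RNA and neither its editing nor its splicing. The introns also hold 7 annotated miRNA genes, Mir448 and Mir1298 among them, and the snoRNA gene Snora35 on the same strand, none of them a feature of the matrix. Il13ra2, the nearest downstream neighbour at 186 kb, had 0 UMIs in all nuclei kept. Amot, the nearest upstream neighbour at 1457 kb, had 745 UMIs in all, at 1.03 CPM in L5/6 NP-like and 7.45 CPM in Vip-like nuclei.

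After filtering, 12981 nuclei with a median of 8892 UMIs remained, between 1573 and 4187 per library. They formed 25 clusters, and 17 classes were named from marker genes. The libraries held between 19968985 and 57947155 UMIs before filtering, and 17 barcode sequences occurred in more than 1 library among the nuclei kept. In near-projecting-like nuclei (L5/6 NP-like), 7 of the 9 fixed markers stood at least 2-fold above the other excitatory nuclei over all libraries, and above them in each, among them Tshz2 and Vwc2l. Classes are clusters that resemble a type, and the genes that define them are not results.

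Htr2c was highest in L5/6 NP-like nuclei, then in Vip-like nuclei, then in striatal medium spiny neuron-like nuclei. Htr2c had 8097 UMIs over all nuclei kept and at least 1 UMI in 1900 nuclei (14.6%, exact binomial 95% interval 14.03 to 15.3). L5/6 NP-like nuclei were 3.38% of the nuclei and held 40.6% of the Htr2c UMIs. The level there was 844 CPM (the gene's UMIs relative to all UMIs of the class, the unit of every level here; exact Poisson 95% interval 816 to 874), over 439 nuclei. In libraries 1 to 4 it was 940, 865, 753 and 792 CPM. Vip-like nuclei were 1.82% of the nuclei, held 13.005% of the UMIs, and stood at 523 CPM (492 to 555) over 236 nuclei. Their libraries differed more, at 681, 549, 523 and 333 CPM. Each library had a higher level in L5/6 NP-like than in Vip-like nuclei. All intervals here cover counting error only, and the order of the classes is a description, since the gene was chosen for it.

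Among striatal medium spiny neuron-like nuclei the level was 377 CPM (354 to 402). These cells belong to the striatum, next to the dissected cortex. Their 332 nuclei were unevenly spread, with 222 in library 1, 77 in library 2, 32 in library 3 and 1 in library 4. Levels in the first 3 libraries were 326, 554 and 283 CPM. In library 2 the striatal level was above the Vip-like one, so the second and the third place are not separated in every library. The Vip-like level also rests on sub-clusters 3 and 4 of that class, described below. Without them the other 167 Vip-like nuclei stood at 284 CPM (256 to 314). The 2 were picked for having the most Htr2c, so a lower level without them was fixed in advance. The striatal class, whose sub-clusters 2 and 3 stood at 505 and 485 CPM, was left whole, so the 2 levels are not a like comparison. The 3 classes together were 8.14% of named nuclei and held 67.1% of their Htr2c UMIs. They also held 379 nuclei with 5 or more Htr2c UMIs, 75.6% of all such named nuclei.

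The other interneuron classes followed at much lower levels. Pvalb-like nuclei, fast-spiking interneurons, stood at 80.1 CPM (73.0 to 87.8), with 61.0, 112, 67.3 and 75.2 CPM in libraries 1 to 4. Sst-like nuclei stood at 49.5 CPM (42.8 to 56.9) and Lamp5-like nuclei at 40.5 CPM (30.0 to 53.3), with libraries from 19.2 to 80.1 and from 8.16 to 78.0 CPM. Among excitatory classes other than L5/6 NP-like, L2/3 IT-like nuclei had 34.6 CPM, Rorb mid-layer-like nuclei 27.0, L5 ET-like nuclei 18.2, L6 IT-like nuclei 13.03, L6 CT-like nuclei 6.13 and L6b-like nuclei 4.73. From Pvalb-like downward, the library range of each class overlapped that of the next, and 10 of the 16 neighbouring pairs in the whole order had overlapping counting intervals. Library 2 was the highest library in 8 of the 16 named classes with at least 10 nuclei in every library. L2/3 IT-like nuclei were at 62.8 CPM there and at 30.7, 20.2 and 23.7 in libraries 1, 3 and 4.

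**Figure D1:**
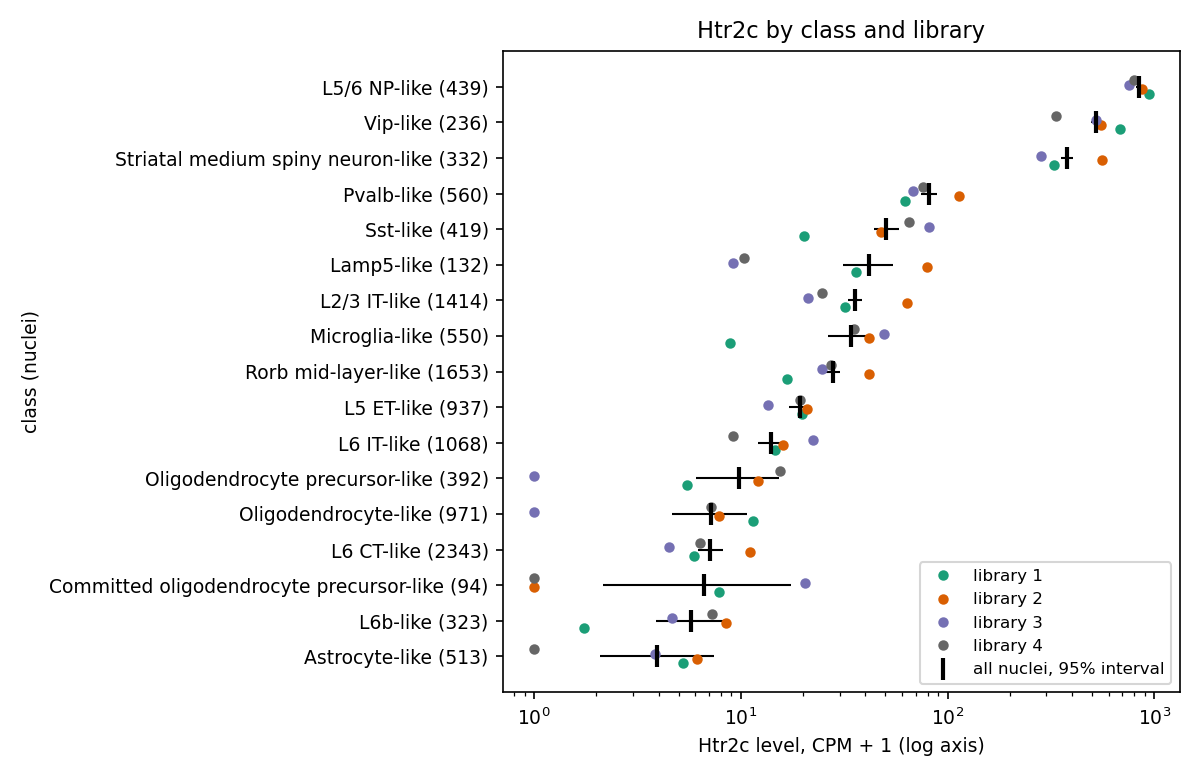
Htr2c level in each of the 17 named classes on a log axis of CPM + 1. Black ticks are all nuclei with the exact Poisson 95% interval, coloured points are libraries with at least 10 nuclei of the class. The L5/6 NP-like, Vip-like and striatal classes lie between 377 and 844 CPM, and no other named class is above 80.1 CPM.

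Glial classes gave the background. Astrocyte-like nuclei had an Htr2c UMI in 1.17% of 513 nuclei at a median depth of 3700 UMIs, and oligodendrocyte-like nuclei in 1.85% of 971 at 2693 UMIs, never more than 1 UMI in a nucleus. L5/6 NP-like nuclei had one in 83.8% of nuclei (80.0 to 87.1) at a median of 8157 UMIs, and Vip-like nuclei in 66.5% (60.1 to 72.5) at 7571 UMIs. Thinned to 1500 UMIs per nucleus, the shares were 58.4% and 38.2% against 0.599% in astrocyte-like and 0.938% in oligodendrocyte-like nuclei. Thinned L6 CT-like nuclei were at 0.933% and L6b-like nuclei at 0.675%, shares like those of the 2 glial classes. Unlike those, they had some nuclei with more than 1 UMI. In L6 CT-like nuclei 18 had 2 to 4 and 3 had 5 to 19, and in L6b-like nuclei 4 had 2 to 4. Microglia-like nuclei stood at 33.0 CPM although only 2.36% had a UMI. Of their 61 UMIs, 47 came from 4 nuclei, which had 1526 CPM of Tshz2, the near-projecting marker, against 25.8 CPM in the other 546 microglia-like nuclei. Choroid plexus, a tissue rich in Htr2c, was checked through 6 of its genes. Its defining markers Ttr and Folr1 were at 0 UMIs in Vip-like and striatal nuclei, and L5/6 NP-like nuclei had 1 UMI of Ttr and 0 of Folr1. Kcne2 was at 0 in the 3 classes. Kl had 12, 1 and 3 UMIs and Clic6 7, 0 and 34 UMIs in L5/6 NP-like, Vip-like and striatal nuclei, and Aqp1 had 2 in L5/6 NP-like nuclei. Their part in the Htr2c level was not tested.

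Against the other excitatory nuclei together, at 18.8 CPM, Htr2c was 5.49 higher on the log2 scale in L5/6 NP-like nuclei (exact binomial 95% interval 5.41 to 5.58). Libraries 1 to 4 gave log2 ratios of 6.03, 4.91, 5.52 and 5.64. Against the other inhibitory nuclei, at 64.6 CPM, Vip-like nuclei were 3.02 higher (2.88 to 3.16), with 4.01, 2.70, 2.97 and 2.36 by library. The smallest of the 4 values for L5/6 NP-like nuclei is above the largest for Vip-like nuclei, but the 2 ratios have different denominators.

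Within a class the nuclei differed widely. In L5/6 NP-like nuclei the median was 5 Htr2c UMIs, the quartiles were 2 and 11, and the highest nucleus had 69. In Vip-like nuclei the median was 2, the upper quartile 5.25 and the highest 61. Striatal nuclei had a median of 2, an upper quartile of 4 and a highest count of 45. L5/6 NP-like nuclei included 71 with no Htr2c UMI and 29 with 20 or more, and Vip-like nuclei 79 and 7.

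To remove depth, each nucleus with at least 5000 UMIs was thinned to that number by expectation. In L5/6 NP-like nuclei 20.6% then had no Htr2c UMI, where a Poisson count of the same mean gives 1.44%. Vip-like nuclei had 37.9% against 8.46%, and striatal nuclei 30.9% against 14.5%. The Fano factor, the variance divided by the mean and equal to 1 for a Poisson count, was 3.95, 4.28 and 2.54 in these classes. Sst-like nuclei had the highest Fano factor of the named classes, 5.15: only 39 of 419 nuclei had a UMI, and 1 of them had 31.

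**Figure D2:**
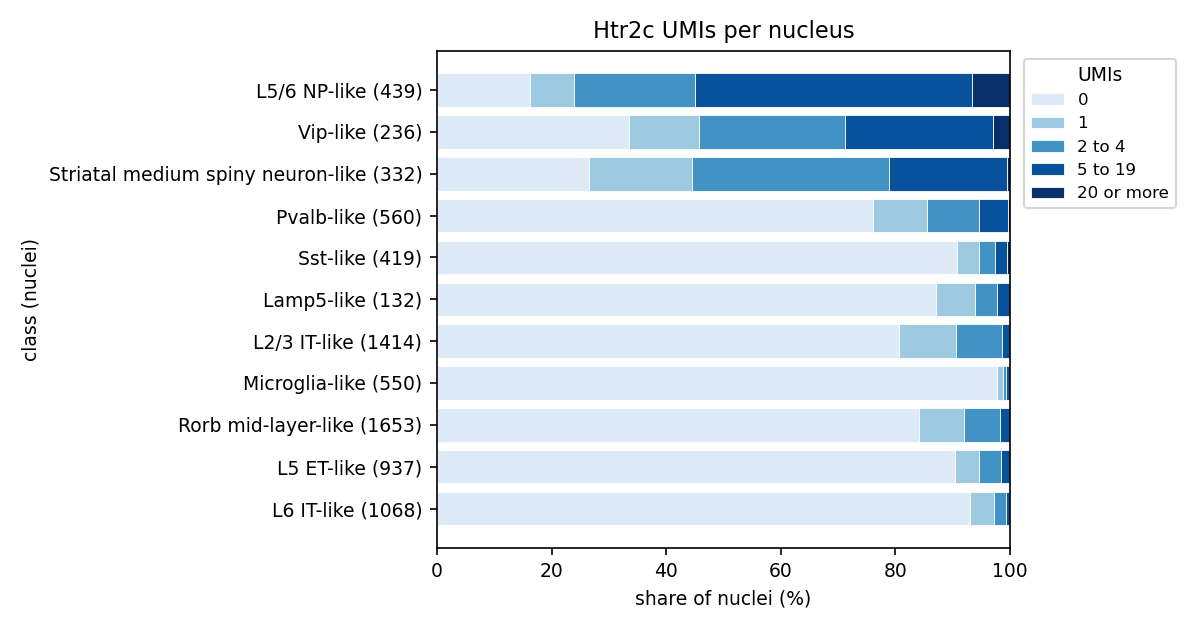
Share of nuclei (horizontal axis, %) by number of Htr2c UMIs in the 11 named classes with the highest level. L5/6 NP-like nuclei have 29 of 439 with 20 or more UMIs, and 83.8% with at least 1. In each class other than the upper 3, most nuclei have 0.

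Sub-clusters made without Htr2c and the other serotonin receptors showed part of that spread. L5/6 NP-like nuclei fell into 5 sub-clusters. Sub-cluster 1, led by Ror1, Sntb1 and Stard13, had 1398.5 CPM of Htr2c (1330 to 1470) over 134 nuclei. It held 47.1% of the Htr2c UMIs of the class in 30.5% of its nuclei, and it was the highest sub-cluster in each library, at 1517, 1682, 1119.6 and 1279.8 CPM. Sub-cluster 2, led by Dkk2 and with most of the vesicular glutamate transporter Slc17a8, had 772 CPM. Sub-clusters 3 and 4 had 586 and 630.2 CPM. Sub-cluster 5 was the lowest at 333 CPM over 38 nuclei. It also had less of the class marker Tshz2, 1945 CPM against 3203 to 4293 in the others, and a median of 12000.5 UMIs against 7546.5 to 8123.5. Without it the class stood at 919.6 CPM.

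In Vip-like nuclei the Htr2c was concentrated where Vip itself was not highest. Of 8 sub-clusters, sub-cluster 3 had 1023 CPM of Htr2c (923 to 1130; 38 nuclei) and sub-cluster 4 had 945 CPM (839 to 1062; 31 nuclei). They made up 29.2% of the class and held 64.0% of its Htr2c UMIs. They were not the upper pair in each library. In library 4 sub-cluster 4 was at 389 CPM (8 nuclei), below sub-clusters 5 and 6 at 549 and 457 CPM, and in library 1 sub-cluster 6 (6 nuclei) was at 1029 CPM, above sub-cluster 4 at 795. Library 3 had only 2 nuclei of sub-cluster 3, at 438 CPM. The other 6 sub-clusters together had 284 CPM (256 to 314) and ranged from 172 to 429. Vip, the peptide that names the class, was at 427 and 132 CPM in sub-clusters 3 and 4, and at 1463, 978 and 1029.7 CPM in sub-clusters 1, 2 and 5, whose Htr2c was 367, 177 and 381 CPM. Sub-clusters 3 and 4 instead had 548 and 526 CPM of Cck, the gene of cholecystokinin, and 986 and 1150.4 CPM of Cnr1, the cannabinoid receptor of cholecystokinin interneurons. Sub-clusters 6 and 8 had still less Vip, 83.8 and 37.1 CPM, with 429 and 208 CPM of Htr2c, and sub-cluster 8 had the most Cnr1, 1647 CPM. Chat and its partner transporter Slc5a7 had 0 UMIs in sub-clusters 3 and 4. Cck, Cnr1 and Col14a1, a leading gene of sub-cluster 4, are on the fixed marker list of Sncg interneurons, a type no cluster was named for. Sncg itself had 2 and 1 UMIs in sub-clusters 3 and 4. The sub-clusters were given no type name. They are small, and in sub-cluster 1 the libraries ran from 100.5 to 811 CPM of Htr2c. The Htr2c-rich sub-clusters were thus not the ones with the most Vip.

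The same was read nucleus by nucleus, in a split chosen after these values had been seen. Vip-like nuclei with Vip above the median of their library had 322 CPM of Htr2c, and the others 698 CPM (log2 ratio -1.12, interval -1.31 to -0.92). The direction held in each library: 312 against 1026, 427 against 647, 274 against 760 and 248 against 405 CPM. Median depths were 7309 and 8169 UMIs. Split by Cnr1, the nuclei with more of it had 718 CPM of Htr2c and the others 305 CPM, again higher in each of the 4 libraries. By Reln, the gene of the matrix protein reelin, the levels were 735 and 384 CPM, in the same direction in the 3 libraries with enough nuclei to be read. By Penk, the enkephalin gene, they were 277 CPM in nuclei with more and 602 CPM in the others. By Cck they were 657 and 403 CPM, though library 1 went the other way, with 646 against 712 CPM.

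**Figure D3:**
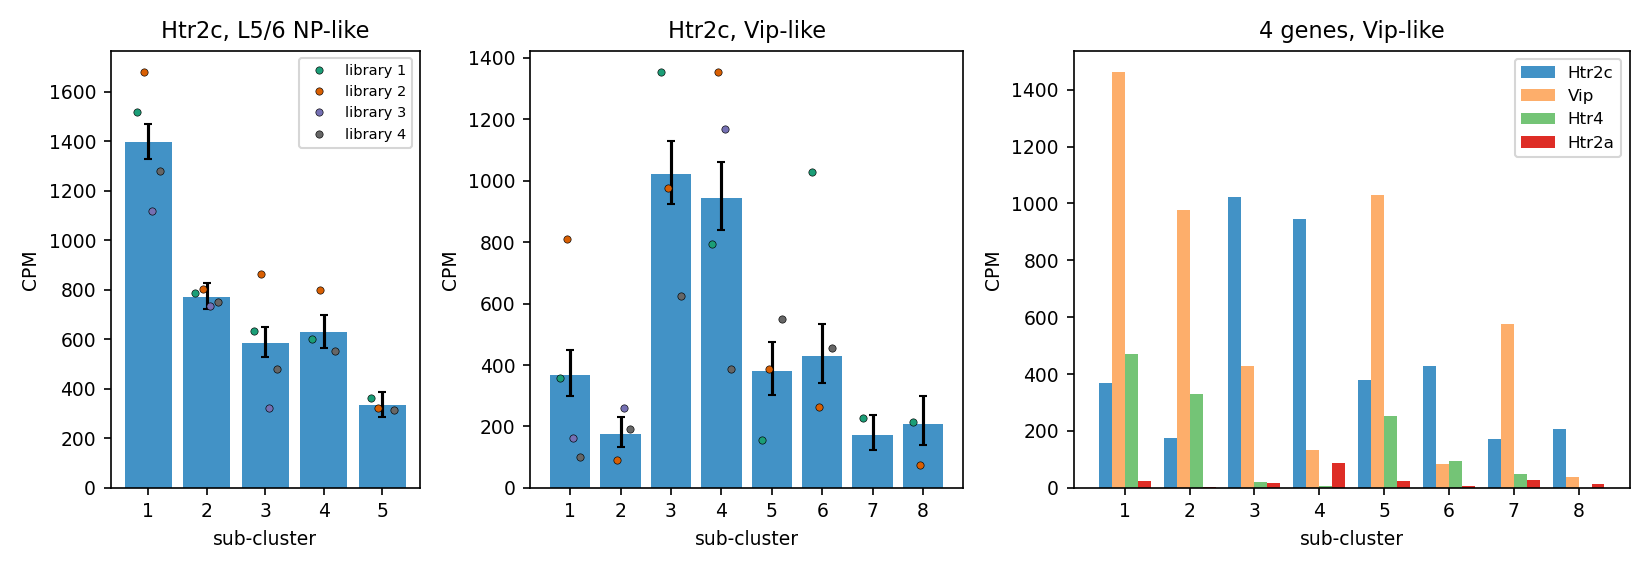
Left and middle, Htr2c level in CPM by sub-cluster of L5/6 NP-like and Vip-like nuclei, with exact Poisson 95% intervals and points for libraries with at least 5 nuclei. Right, Htr2c, Vip, Htr4 and Htr2a in the Vip-like sub-clusters: sub-clusters 3 and 4 have the most Htr2c, 1023 and 945 CPM, and 21.1 and 6.61 CPM of Htr4.

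Striatal nuclei were also uneven, and the dopamine receptor genes gave part of the order. Sub-clusters 2 and 3, with 333 and 397 CPM of the D2 receptor gene Drd2, had 505 and 485 CPM of Htr2c. Sub-cluster 1, with the D1 receptor gene Drd1 at 70.1 CPM and Drd2 at 2.80, had 435 CPM. Sub-cluster 4, also with Drd1 and led by Sema5b, Tac1 and the opioid receptor gene Oprm1 among others, had 195 CPM. Drd2 did not mark high Htr2c throughout. Sub-clusters 5 and 7, with 288 and 113 CPM of Drd2, had 282 and 273 CPM of Htr2c, below sub-cluster 1. Sub-cluster 6, with Drd1 at 64.3 CPM and Drd2 at 0, had 230 CPM of Htr2c. In nuclei split by Drd2 the levels were 447 CPM with more and 331 CPM with less of it. Library 3 had the widest gap, 471 against 114 CPM, and library 2 the narrowest, 569 against 543.

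Among the other serotonin receptors, Htr4, which couples to Gs, was also highest in L5/6 NP-like and then Vip-like nuclei. It stood at 374 CPM in L5/6 NP-like nuclei, at 159 CPM in Vip-like nuclei and at 102 CPM in L5 ET-like nuclei. Striatal nuclei had 20.9 CPM. A gene was called higher or lower from its size alone. It needed 100 UMIs or more over both sides, a 2-fold difference, and 1 direction in all libraries that had 10 or more nuclei per side. By this measure 4.61% of 15342 genes were higher and 9.82% lower in L5/6 NP-like than in other excitatory nuclei. Of 14 receptor genes 10 could be compared, 2 were higher and 3 lower. Htr4 was 4.17 higher on the log2 scale (4.07 to 4.27), beside Htr2c, whose call is fixed by the choice of the gene. Htr2a was 1.85 lower, at 12.3 against 44.5 CPM. Htr1b, a Gi-coupled receptor, stood at 1.03 against 7.45 CPM and Htr7, a Gs-coupled one, at 1.799 against 5.29 CPM, both lower. Htr1f, also Gi-coupled, was abundant in L5/6 NP-like nuclei at 278 CPM, and Htr2b was at 37.0 CPM.

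In Vip-like nuclei 3.53% of 10375 genes were higher and 6.21% lower than in other inhibitory nuclei. Of 6 receptor genes compared, Htr2c, Htr4 and Htr7 were higher and Htr1f and Htr2a lower. Htr7 stood at 57.1 against 15.9 CPM, and Htr2a at 26.8 against 54.6 CPM. Htr3a, the ion-channel subunit often used to mark Vip interneurons and their relatives, was at 19.9 CPM in Vip-like nuclei and at no more than 1.10 CPM in any other named class. In striatal nuclei 6.95% of 10975 genes were higher and 15.5% lower than in cortical inhibitory nuclei, over the 3 libraries with enough nuclei. Htr1b was higher, at 36.8 against 3.93 CPM, with Htr2c at 377 against 136 CPM, while Htr4 and Htr7 were lower. Htr2a stood at 47.6 CPM.

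Between the Htr2c-rich cortical classes themselves, 7.75% of 7459 genes were higher and 5.94% lower in L5/6 NP-like than in Vip-like nuclei. Of 6 receptor genes compared, Htr4 and Htr1f were higher and Htr7 and Htr2a lower. Htr1f had a log2 ratio of 2.21 and Htr7 one of -4.99. Htr2c itself, at 844 against 523 CPM, was short of the 2-fold rule.

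**Figure D4:**
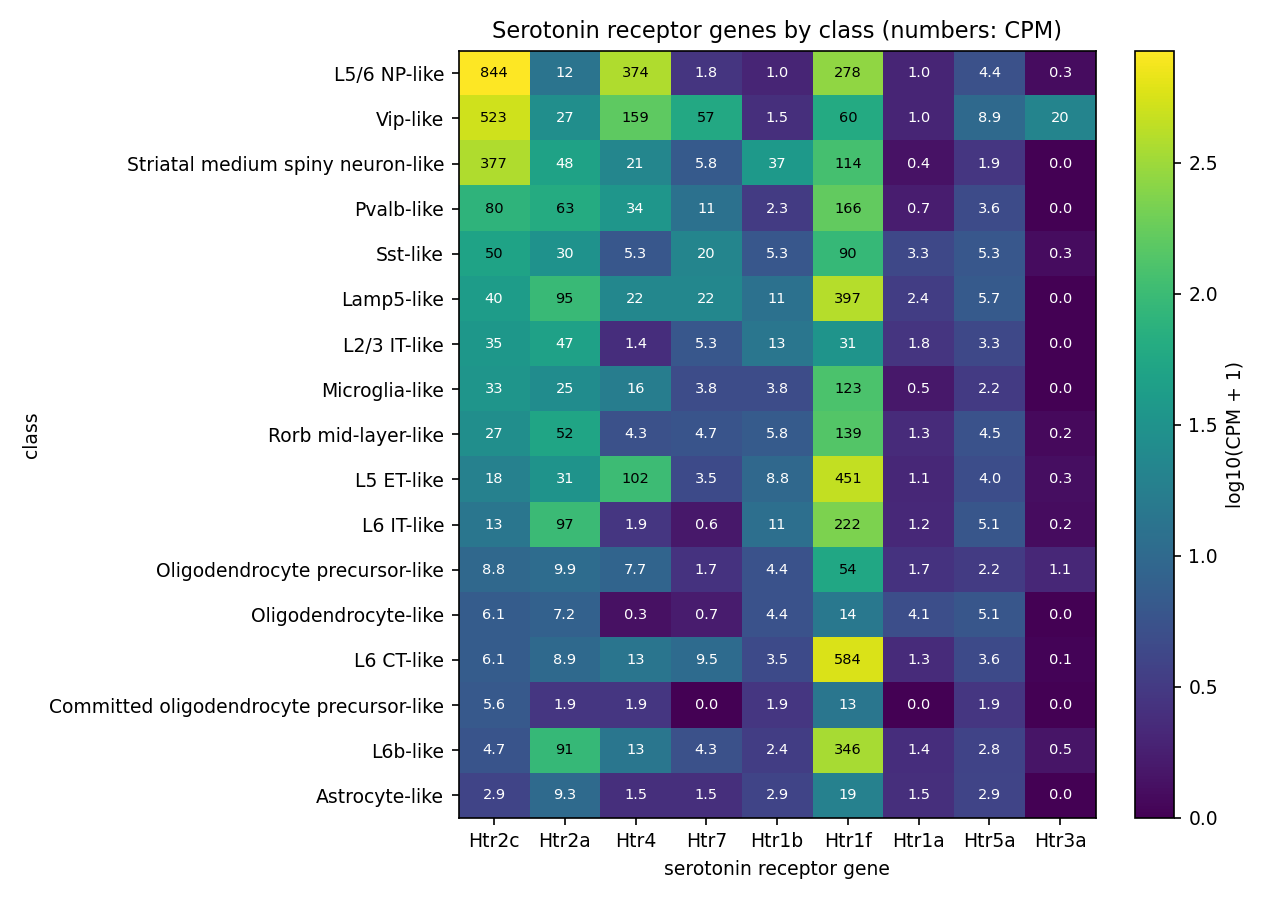
Levels of 9 serotonin receptor genes in the 17 named classes, ordered by Htr2c. Numbers are CPM and colours log10(CPM + 1). Htr2c and Htr4 are both high in L5/6 NP-like nuclei (844 and 374 CPM) and Vip-like nuclei (523 and 159 CPM), where Htr2a is at 12.3 and 26.8 CPM.

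At finer grain Htr2c and Htr4 went together in one class and apart in the other. The L5/6 NP-like sub-cluster with the most Htr2c also had the most Htr4, 591 CPM against 227 to 346 CPM in the others. L5/6 NP-like nuclei with more Htr4 had 1021 CPM of Htr2c and the others 663 CPM (log2 ratio 0.62, 0.52 to 0.72), in the same direction in each library. In Vip-like nuclei the order was the reverse: 321 CPM of Htr2c in nuclei with more Htr4 and 659 CPM in the others (log2 ratio -1.03, -1.24 to -0.83), again in each library. Vip-like sub-clusters 1 and 2, with 469 and 331 CPM of Htr4, had 367 and 177 CPM of Htr2c. The sub-clusters did not follow 1 order, since sub-clusters 7 and 8, with 49.9 and 0 CPM of Htr4, had 172 and 208 CPM of Htr2c. An Htr4 UMI was seen in 80.4% of L5/6 NP-like nuclei with Htr2c (76.0 to 84.4) and 71.8% of those without (59.9 to 81.9). In Vip-like nuclei the shares were 37.6% (30.0 to 45.7) and 55.7% (44.1 to 66.9). The intervals overlap in both classes. At an equal depth of 5000 UMIs, Vip-like nuclei with both were 0.791 times the number that unrelated detection gives, and L5/6 NP-like nuclei 1.02 times. Most L5/6 NP-like nuclei had each gene, so their ratio had little room to rise.

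Htr2a and Htr2c, both of which DOI activates, were seen together in few nuclei of the L5/6 NP-like and Vip-like classes. In L5/6 NP-like nuclei 35 of the 368 with an Htr2c UMI also had an Htr2a UMI, 9.51% (6.71 to 12.98), against 5 of the 71 without, 7.04% (2.33 to 15.7). The number with both was 1.04 times the 33.5 nuclei that unrelated detection gives, and 0.990 times after thinning to 5000 UMIs. Libraries 1 to 4 gave 6, 9, 5 and 15 such nuclei. In Vip-like nuclei 27 of 157 with Htr2c had Htr2a, 17.2% (11.6 to 24.03), against 7.59% of those without (2.84 to 15.8). The intervals overlap, and the ratio to unrelated detection was 1.23, or 1.21 thinned. Its interval, 0.81 to 1.79, covers only Poisson error in the number with both. Libraries 1 to 4 gave ratios of 1.17, 1.19, 1.31 and 1.29. The nuclei with Htr2c were deeper, at a median of 8389 against 5969 UMIs. Of the 54 Htr2a UMIs in Vip-like nuclei, 26 lay in sub-cluster 4, at 86.0 CPM, and sub-cluster 3 had 18.4 CPM.

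Across the classes 490 of the 1837 named nuclei with Htr2c had Htr2a, 26.7% (24.7 to 28.8), and 18.3% of those with Htr2a had Htr2c. Over all named nuclei unrelated detection gives 397.7, and within each class it gives 430.4 in sum, so that the observed number was 1.14 times the latter and 1.23 times the former. In 8 classes at least 20 nuclei had both. Rorb mid-layer-like nuclei had the most, 112, then L2/3 IT-like nuclei with 80, Pvalb-like with 63, striatal with 55 and L6 IT-like with 44. The 55 striatal nuclei were among 244 with Htr2c. The ratio for all UMIs was 1.15 in Rorb mid-layer-like, 0.995 in L2/3 IT-like, 1.17 in Pvalb-like, 1.011 in striatal, 1.17 in L6 IT-like and 1.46 in L5 ET-like nuclei. In each of the 8 classes the counting interval of the ratio included 1. That interval takes the number with both as a free Poisson count and does not hold the numbers with each gene fixed. It can reach past the ratios that are possible, so its including 1 does not show that the detections are unrelated. At 5000 UMIs per nucleus the ratio over the named nuclei was 0.994 in place of 1.23. It covers only the 9568 of 12376 named nuclei with at least 5000 UMIs, among them 401 of 2520 non-neuronal ones. The 2 ratios thus differ in the mix of classes as well as in depth, and these were not separated.

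**Figure D5:**
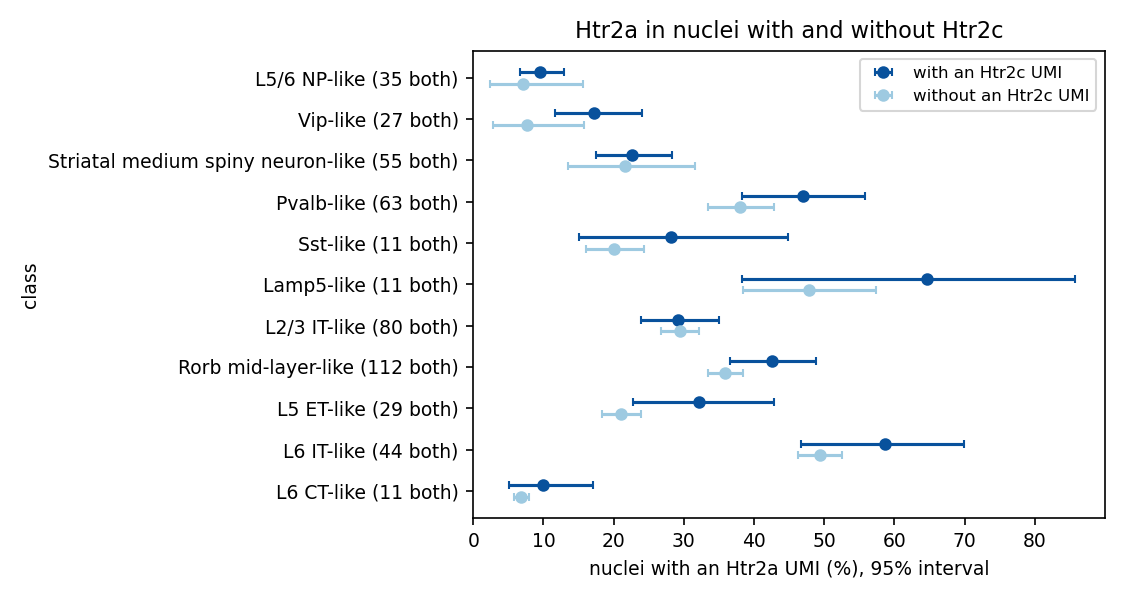
Share of nuclei with an Htr2a UMI (horizontal axis, %, with exact binomial 95% intervals) among nuclei with (dark) and without (light) an Htr2c UMI, in the classes with at least 10 nuclei holding both. In L5/6 NP-like nuclei the shares are 9.51% and 7.04%, in Vip-like nuclei 17.2% and 7.59%, and the intervals overlap.

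Genes that act on or after the receptor were read from lists. Among 4 genes of A-to-I editing, the deaminase gene Adarb1 was higher in L5/6 NP-like than in other excitatory nuclei, at 188 against 87.5 CPM. Adarb2, a relative without known deaminase activity and itself a marker of the class, was higher in Vip-like nuclei. Of 13 Gq pathway genes compared in L5/6 NP-like nuclei, the protein kinase C gene Prkca was higher, at 1094 against 395 CPM, and Prkcb lower, at 381 against 949.5 CPM. These are 1 of 13 each way, beside 4.61% higher and 9.82% lower over all genes, so the counts do not set the list apart. The median of the list was 0.19 on the log2 scale, beside 0.12 over all genes. Itpr1, the receptor of the second messenger IP3, was lower in Vip-like nuclei, at 119.6 against 252 CPM. Striatal nuclei had Itpr1 at 906 against 231 CPM, with Rgs2, a brake on Gq, and Prkcb also higher, and Plcb4 and Itpr2 lower. The receptor kinase gene Grk5 was called in L5/6 NP-like nuclei as 1 of 12 scaffold and desensitisation genes, with 99.0 CPM beside 38.5 CPM. None of 12 was called in Vip-like nuclei. In striatal nuclei Grk3 and Mpdz, whose protein binds the tail of the receptor, were lower, Mpdz at 24.8 against 90.2 CPM. These were 2 of 12, near the 15.5% lower over all genes.

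Of 12 activity genes, 6 were lower in L5/6 NP-like than in other excitatory nuclei and none higher, beside 9.82% lower and 4.61% higher over all genes. The list median was -0.88, and 0.12 over all genes. The largest were Nr4a2 at 2.06 against 11.7 CPM, Bdnf at 13.1 against 47.0, Egr3 at 12.3 against 41.3, and Homer1 at 245.5 against 599.9 CPM. In Vip-like nuclei 2 of 11 were higher, Nr4a1 at 80.9 against 30.2 CPM and Npas4 at 24.8 against 11.7 CPM, beside 3.53% higher over all genes. The nuclei of these classes mix DOI and saline, so these are class levels and not responses. Maoa, the serotonin-degrading monoamine oxidase, was the 1 gene of its list that could be compared in Vip-like nuclei and was higher, at 31.3 against 11.9 CPM. None of the reporter features was called in either class.

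Splitting each class at the median Htr2c level of its library asked which other genes go with the receptor. The sides of the L5/6 NP-like class had 219 and 220 nuclei, at 1461 and 248 CPM of Htr2c and median depths of 7940 and 8244 UMIs. Of 5784 genes 26 were higher (0.45%) and 21 lower (0.363%). Unc5d, a netrin receptor, stood at 195 against 73.3 CPM (log2 ratio 1.41), with a ratio between 1.18 and 1.46 in each library. Dpyd, a pyrimidine-degrading enzyme, stood at 143 against 56.1 CPM, Stard13 at 95.3 against 33.9, Adamts17 at 60.8 against 23.3 and Rreb1 at 41.4 against 12.1. Stard13 and Rreb1 are among the leading genes of sub-cluster 1. Lower with more Htr2c were Pcdh11x at 9.95 against 41.0 CPM, Dscaml1 at 16.2 against 65.2, Neto1, an auxiliary subunit of kainate receptors, at 26.7 against 87.0, D5Ertd615e at 15.2 against 36.9 and Slc24a3 at 18.9 against 45.5. Dscaml1 is a leading gene of sub-cluster 5 and Slc24a3 of sub-cluster 4. A Dscaml1 UMI was seen in 12 nuclei with more and 38 with less Htr2c. Of the lists, none of 8 Gq pathway, 9 scaffold, 3 editing or 4 activity genes was called. Adarb1 was 189.6 against 186.6 CPM, and Htr2a had too few UMIs to be compared. Without library 4, 22 genes were called, 13 of them among the 47 called with all libraries, and Unc5d, Dpyd, Stard13 and Neto1 of those named were among them.

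The same split of Vip-like nuclei gave 117 and 119 nuclei at 963 and 62.9 CPM of Htr2c. Of 3431 genes 25 were higher (0.729%) and 28 lower (0.816%). The largest was Stxbp6, which encodes a SNARE-binding protein, at 212 against 23.3 CPM (log2 ratio 3.18, 2.56 to 3.87), with 3.63, 4.61, 1.17 and 2.88 by library. Cadps2, a regulator of dense-core vesicle release, stood at 1217 against 411 CPM, Pde11a, a cyclic nucleotide phosphodiesterase, at 124 against 34.5, Tnfaip8l3 at 94.3 against 16.2 and Epb41l4a at 81.7 against 22.3. Stxbp6, Cadps2, Pde11a and Epb41l4a are leading genes of sub-cluster 3. Htr7 was the 1 called receptor of 3, at 80.7 against 32.5 CPM (log2 ratio 1.31, 0.71 to 1.95). Lower with more Htr2c were Col26a1 at 16.5 against 93.4 CPM, Meis2 at 20.4 against 101.5, Lin7a at 29.2 against 111, the calcium channel gene Ryr3 at 80.7 against 287 and the kinase gene Prkg1 at 71.0 against 232. Lin7a is a leading gene of sub-cluster 5, and Meis2 and Prkg1 are leading genes of sub-cluster 7, which had 15 nuclei. Few nuclei had a UMI of Meis2, 12 with more and 20 with less Htr2c, or of Prkg1, 18 and 43. Vip was 514 against 741 CPM and Reln 347 against 175 CPM, both short of the 2-fold rule. Without library 2, 49 genes were called, 29 of them among the 53, and 4 of the 10 named genes were still called. The other 6, Tnfaip8l3, Epb41l4a, Pde11a, Col26a1, Meis2 and Lin7a, were under the UMI minimum.

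In striatal nuclei 0 of 4030 genes were higher and 12 lower (0.298%), over 3 libraries. These calls rest on library 1, which held 222 of the 332 nuclei: without it 4 genes were higher and 8 lower, and 2 of these 12 were among those called with all libraries. Of the 5 genes named next, 1 was still called, and Gpc5, Mast4 and Kcnt2 were under the UMI minimum. Dpp10, a potassium channel subunit, stood at 540.1 against 1422 CPM, Pcdh15 at 112 against 292, Kcnt2 at 31.2 against 75.6, Mast4 at 16.8 against 66.9 and Gpc5 at 14.5 against 70.8 CPM. None of the 11 striatal markers compared was called. Drd2 was 181 against 119 CPM and Tac1 66.3 against 132 CPM.

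Nuclei with an Htr2c UMI were also set against those without one. Among L5/6 NP-like nuclei 76 genes were then higher (1.31%) and 12 lower (0.207%), and Pcdh11x again was lower, at 14.04 against 88.3 CPM. In Vip-like nuclei 61 were higher (1.78%) and 17 lower (0.495%), with Stxbp6 at 159 against 9.46 CPM. In striatal nuclei 12 were higher (0.298%) and 9 lower (0.223%), Tac1 among the latter. The median depth of Vip-like nuclei was 8389 UMIs with and 5969 without Htr2c, and the part of depth in these calls was not tested.

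Over the 17 classes no gene followed Htr2c closely. Of 12422 genes with at least 500 UMIs, none had a Pearson correlation above 0.9 with its log2(CPM + 1). The nearest was Hrh2, the histamine H2 receptor gene, at 0.84, with 69.2 CPM in L5/6 NP-like, 90.3 in Vip-like and 15.5 in striatal nuclei. Hs6st3, a heparan sulfate sulfotransferase gene, followed at 0.79, with 1717, 799.6 and 1527 CPM. Clmp, Cntnap5a, Scn9a, Rprd1a, Gnl3l, Cdh8, Htr4 and Xkr6 lay between 0.75 and 0.72. These are descriptions over class totals that share libraries and depth.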

How the data were processed

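The authors deposited whole-number UMI counts per feature and barcode in 1 pooled matrix, made with Cell Ranger 7.1.0 on mm10 per the submitters' processing notes, with 2 transgene features added per the file headers. No value in it is normalized. Barcode endings were not mapped to samples, so nothing was tested between groups.

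Barcodes under 500 genes, under 800 UMIs or over 5% mitochondrial UMIs were dropped: 9132 of 22402, of which 8638 exceeded the mitochondrial limit. Scrublet scores above 0.25 removed 289 more. Each nucleus was scaled to 10000 counts on a log scale. The 2000 genes of highest variability then gave 30 components, 15 neighbours and Leiden clusters at resolution 1.0 (0.6 for sub-clusters) with scanpy 1.11.5. Serotonin receptors and the list genes that are not cell type markers were left out. List genes that are also markers, such as Vip, Cck and Cnr1, could take part. Clusters were named by at least 3 fixed markers, 2-fold enriched and at 10 CPM or more. Fixed lists and the genes eligible to be named (called list genes, at most 4 per list, 5 genes per direction of a split, the 10 nearest to Htr2c and all receptors with at least 50 UMIs) were chosen with earlier results of these data known.

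UMIs were summed per class. Shares have Clopper-Pearson and levels exact Poisson 95% intervals. No p-value was made from nuclei. The calling rule and the thinning were tested on simulated data. For the calling rule these were Poisson counts without added spread between nuclei or libraries. They do not give the rate of chance calls in real nuclei. Alternatives were other filters, resolutions, depths and minimums, and each library left out. Some list genes are not reported here.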

Additional observations from a re-analysis of the deposited data

Results flagged for a closer look

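In the unnamed cluster 5 (183 nuclei with globin, excitatory and non-neuronal markers), the 76 nuclei of library 2 had 246 CPM of Htr2c, far from the 29.6, 26.9 and 18.8 CPM of libraries 1, 3 and 4. The library 2 value rests on 35 UMIs in 8 nuclei, and 1 nucleus of the cluster alone had 27 UMIs. This was the 1 such gap among 22 classes, clusters and pooled totals of classes examined, where the rule flags about 1 in 20 by chance. The totals are sums of the other groups and so not independent of them.

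The 9421 barcodes removed by the filters and the doublet score, which no class level uses, held 856 Htr2c UMIs. Their level was 28.4 CPM (26.5 to 30.3), and 4.22% had a UMI at a median depth of 2194 UMIs. Libraries 1 to 4 stood at 48.8, 34.9, 24.9 and 17.9 CPM.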

How the results depend on the processing

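The log2 ratio of Htr2c against the other excitatory nuclei was 5.49 in L5/6 NP-like nuclei, and 5.02 at a mitochondrial limit of 1%. For Vip-like nuclei against other inhibitory nuclei it was 3.02, and 2.14 without sub-clusters 3 and 4. That alternative was chosen after seeing the data, and for the high Htr2c of these sub-clusters. Every other alternative that gave a value stayed within 1 SD over libraries for both, and no direction reversed. The ratio of nuclei with Htr2c and Htr2a to unrelated detection stayed between 0.944 and 1.07 in L5/6 NP-like and between 1.18 and 1.27 in Vip-like nuclei. At a mitochondrial limit of 20% no cluster was named Vip-like, so no value could be had there.

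Counts of genes called with Htr2c moved most. In L5/6 NP-like nuclei 47 became 93 at a minimum of 50 UMIs, 11 at 500 UMIs, 10 at a mitochondrial limit of 1% and 88 in nuclei with against without an Htr2c UMI, and ran from 22 to 53 with 1 library left out. In Vip-like nuclei 53 became 98, 12 and, in 55 nuclei at the 1% limit with the sign read in 1 library, 84. With 1 library left out they ran from 40 to 67. In striatal nuclei 12 became 42, 2, 2 (a higher minimum of genes per nucleus), 54 (doublets kept), 21 (20% limit) and 21 (with against without a UMI), and from 10 to 18. The number of genes compared changed as well. At the 1% limit it was 1571 in place of 5784 in L5/6 NP-like nuclei, where the calls fell. In Vip-like nuclei it was 1016 in place of 3431, where the calls rose. Without library 3, 67 of 2924 genes were called in Vip-like nuclei. The causes of these changes were not tested.

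No paired analysis was possible because the matrix pools the samples and no barcode ending is tied to a replicate number.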

Other observations

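In the 103 excitatory nuclei of unnamed cluster 8, which had fewer than 3 enriched markers, Htr2c stood at 47.0 CPM (36.0 to 60.4) and 26.2% of nuclei had a UMI, at a median depth of 11496 UMIs. In unnamed cluster 17, between the Meis2 and Neuroblast marker lists, it stood at 89.4 CPM (70.1 to 112) although 8.42% of 190 nuclei had a UMI, and 1 nucleus had 25.

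The 2 transgene features gave little to read beside Htr2c. L5/6 NP-like nuclei held 28 TREmcherry UMIs in 368 nuclei with Htr2c and 7 in 71 without. Vip-like nuclei held 22 in 157 with Htr2c and 3 in 79 without. The groups differ in size, so the UMI counts are not rates.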
